A study of Homo sapiens with 16 samples.

Results

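In a human multiple myeloma cell line, 40 genes of the hypoxia response were followed. They were taken by symbol from a list of subunits, regulators and targets of the hypoxia-inducible factors (HIF), out of 57500 genes in each count table. The 40 comprise 4 HIF subunits, 5 regulators of HIF, 15 genes of glucose uptake, glycolysis and its control, and 16 other HIF targets. Each of them matched 1 identifier. The list names known HIF genes rather than genes past a threshold, but it was drawn up with earlier results of these data known. RNA was measured by bulk RNA sequencing in NCI-H929 cells, a line that produces immunoglobulin, in 16 libraries. In the first experiment, 4 libraries came from cells given p300 degrader 27, a small molecule that directs the p300 protein to breakdown, at 3 nM for 6 h, and 4 came from cells given the vehicle DMSO. In the second, 4 libraries are labelled p300 KO, for knockout, and 4 are labelled NTC, the control of that experiment. The labels give neither how the knockout was made, nor whether it is 1 clone or a pool of cells, nor what NTC stands for. They list the same growth medium for all libraries and no oxygen level. They do not say whether the libraries of a group came from separate cultures, so the tests rest on differences among libraries that may be technical.

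HIF is a transcription factor of an alpha subunit, HIF-1α or HIF-2α, and the stable partner ARNT. With oxygen present, prolyl hydroxylases mark the alpha subunit for destruction by the VHL ubiquitin ligase, and the asparaginyl hydroxylase encoded by HIF1AN blocks its carboxy-terminal activation domain. When oxygen falls, the alpha subunit accumulates, binds DNA with ARNT at short sequences called hypoxia response elements, and recruits the acetyltransferases p300 and CBP through that domain. Its targets move cells from respiration to glycolysis and act in angiogenesis, pH control, mitophagy, collagen synthesis and histone demethylation. In multiple myeloma, HIF activity is known from the oxygen-poor bone marrow.

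A pair of libraries stands apart from their groups, and the calls and counts that change without these 2 are given both ways. Genes of the mitochondrial chromosome took 64.9% of the counts in degrader 2 and 47.7% in p300 KO 1. The share was 5.99% to 6.96% in the other 3 degrader libraries and 13.4% to 23.5% in DMSO, highest in DMSO 3. It was 10.2% to 11.4% in the other 3 p300 KO libraries and 8.91% to 10.3% in NTC. Total counts ran from 12.6 M to 23.1 M per library (M, mega). Values below are counts per M counts of the library (CPM). Except for the cell type markers of this paragraph, they were scaled within each experiment with TMM, a normalization for library composition. The marker values are CPM of total counts without TMM, mitochondrial counts included. A high mitochondrial share therefore lowers them in that library. The summed CPM of 8 plasma cell markers was 3441 to 16639 with the degrader and 10838 to 13658 in DMSO, and 7240 to 13258 in p300 KO and 12773 to 13126 in NTC. JCHAIN made up the largest part of this sum. IRF4 was called lower with the degrader and in p300 KO (edgeR, adjusted p = 0.00475 and 0.00202). TNFRSF17, MZB1 and SLAMF7 were called lower in p300 KO (adjusted p = 0.00847, 0.0238 and 0.00555). No other plasma cell marker was called. Some markers of other cell types were detected, and several moved with the groups. Of 4 fibroblast markers, LUM was at 0 in all 16 libraries and COL1A1, the highest, reached 1.41 CPM. Of 4 epithelial markers, KRT19 was at 0 throughout, EPCAM reached 0.175 CPM, and KRT18 was at 4.84 to 14.3 CPM. The sum of 3 endothelial markers, nearly all of it PECAM1, was 7.94 to 31.5 CPM with the degrader and 49.0 to 53.6 CPM in DMSO, and 18.4 to 29.1 CPM in p300 KO and 50.2 to 59.7 CPM in NTC, while VWF and CDH5 reached 0.141 and 0.130 CPM. PECAM1 was called lower in both (edgeR, adjusted p = 0.00419 and 0.000149). The sum of 5 T cell markers, led by CD3E and TRAC, was 5.80 to 28.8 CPM with the degrader and 38.0 to 45.1 CPM in DMSO, and 21.4 to 39.5 CPM in p300 KO and 47.3 to 53.4 CPM in NTC, while CD3D and CD3G reached 0.263 and 0.330 CPM. CD3E was called lower with the degrader (adjusted p = 0.0348) and TRAC in p300 KO (adjusted p = 0.000148). The sum of 5 monocyte markers was 0.397 to 0.900 CPM with the degrader and 1.15 to 1.52 CPM in DMSO, and 4.47 to 5.08 CPM in p300 KO and 7.48 to 11.7 CPM in NTC. In p300 KO the sums of 6 earlier B cell markers (16.5 to 19.5 CPM, against 26.6 to 30.9 CPM in NTC) and of 4 NK cell markers (50.5 to 76.3 CPM, against 83.0 to 88.2 CPM in NTC) were also lower. The part of these markers in the results was not tested.

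With the degrader, a set of HIF targets led by MIR210HG and PFKFB4 was lower than in DMSO, while most enzymes of the glycolytic chain were not. Of the 37 members that passed the filter on low counts, 8 fell and 1 rose at an adjusted p under 0.05 in edgeR's quasi-likelihood test, against 4.76% of all genes called, 3.12% lower and 1.64% higher. The 8 were MIR210HG, PFKFB4, STC2, ANKRD37, KDM3A, HK2, PFKFB3 and VEGFA, and the 1 was ALDOC. HIF3A, ADM and CA12 were not tested. All 8 that fell had every degrader library below every DMSO library. So did HIF1A and ARNT, which did not pass the test, so that 10 of the 37 lay lower without overlap, against 9.24% of all genes tested. Without degrader 2, 12 of 38 members were lower and 8 were higher, against 20.3% and 18.2% of all genes. With total count scaling in place of TMM, 2 fell, PFKFB4 and MIR210HG, and 0 rose. In bulk libraries, fewer cells that express a gene and less RNA per cell cannot be told apart.

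**Figure D1:**
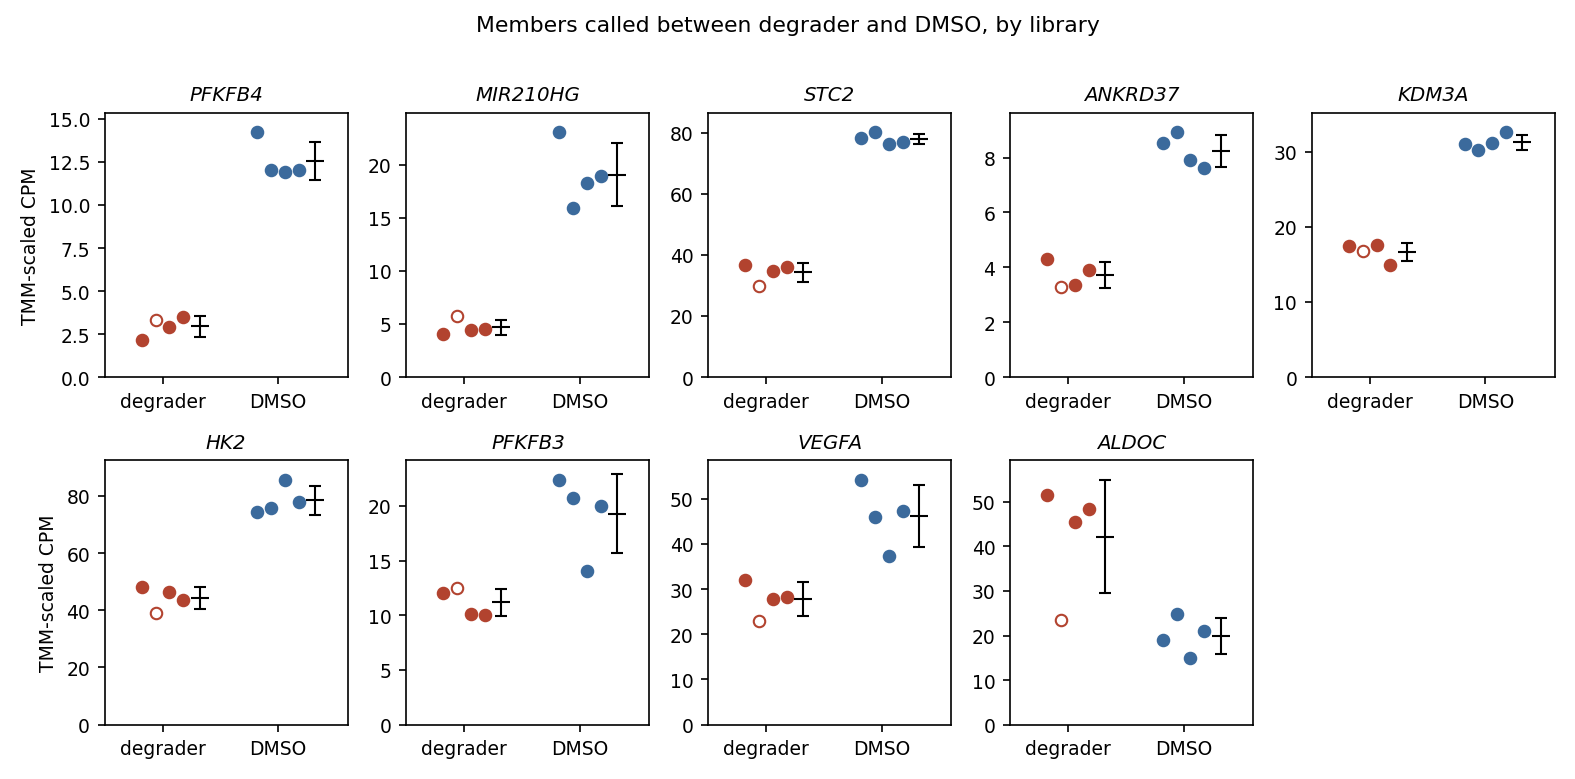
Levels in CPM (TMM-scaled) of the 9 members called with the degrader, 1 panel a gene, with the 4 degrader libraries left of the 4 DMSO libraries. Points are libraries, the open point is degrader 2, and bars are mean ± SD; MIR210HG lies at 4.02 to 5.72 CPM with the degrader and 16 to 23.0 CPM in DMSO, and ALDOC is the member whose open point falls back into the DMSO range.

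MIR210HG is the host transcript of the microRNA miR-210, a classical product of the HIF response, and lies at chr11:565660-568457 on the minus strand (GRCh38). It had 4.02, 5.72, 4.47 and 4.52 CPM in degrader 1 to 4, against 23.0, 16, 18.3 and 18.9 CPM in DMSO 1 to 4. All degrader libraries, degrader 2 included, were far below the lowest DMSO library. The degrader mean was 24.6% of the DMSO mean, with a log2 fold change of −2.05 ± 0.16 (SE; edgeR, adjusted p = 0.000606) and −2.14 ± 0.14 without degrader 2. The hairpin MIR210 lies within the host gene at chr11:568089-568198 and overlaps 0 of its 8 exon pieces, so it is intronic. Reads on the hairpin itself numbered 0 to 32 per library, and mature microRNAs were not measured by these libraries. The mature 3p arm, at chr11:568112-568133, is shown because it is the product that the host transcript is named for, with its seed, bases 2 to 8, in capitals (RefSeq, GRCh38.p14).
hsa-miR-210-3p: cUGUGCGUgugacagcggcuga

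Among the genes of glucose metabolism, those that fell act at the entry to glycolysis and at its control point, fructose 2,6-bisphosphate. PFKFB4 and PFKFB3 make this activator of phosphofructokinase, and HK2 phosphorylates glucose. PFKFB4 (chr3:48517684-48562015) had 2.13, 3.29, 2.91 and 3.47 CPM in degrader 1 to 4, against 14.2, 12.0, 11.9 and 12.0 CPM in DMSO 1 to 4. The groups lay far apart, at a log2 fold change of −2.10 ± 0.17 (SE; edgeR, adjusted p = 0.000714). HK2 (chr2:74833981-74893359) had 48.0, 39.2, 46.4 and 43.6 CPM in degrader 1 to 4, against 74.4, 75.9, 85.6 and 78.0 CPM in DMSO 1 to 4. Its degrader mean was 56.4% of the DMSO mean (log2 fold change −0.82 ± 0.11, adjusted p = 0.00517). PFKFB3 (chr10:6144934-6235545) had 12.1, 12.5, 10.2 and 10.0 CPM in degrader 1 to 4, against 22.4, 20.7, 14.1 and 20 CPM in DMSO 1 to 4. DMSO 3 came closest to the degrader libraries, and the log2 fold change was −0.79 ± 0.16 (adjusted p = 0.0298). PFKFB3 was called in 2 of the 8 leave-outs of 1 library, those of degrader 2 and DMSO 3, and its adjusted p reached 0.118 in the others.

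The other targets that fell have varied roles. STC2, a secreted glycoprotein linked to calcium and phosphate balance (chr5:173314713-173329503), had 36.7, 29.6, 34.9 and 35.9 CPM in degrader 1 to 4, against 78.1, 80.0, 76.3 and 76.8 CPM in DMSO 1 to 4. Its degrader mean was 44.1% of the DMSO mean, and the DMSO libraries hardly differed (log2 fold change −1.18 ± 0.11, adjusted p = 0.00109). ANKRD37, a small ankyrin repeat protein (chr4:185396021-185400628), had 4.31, 3.29, 3.36 and 3.9 CPM in degrader 1 to 4, against 8.54, 8.91, 7.90 and 7.63 CPM in DMSO 1 to 4. KDM3A, a demethylase of histone H3 lysine 9 (chr2:86440647-86492716), had 17.4, 16.8, 17.5 and 14.9 CPM in degrader 1 to 4, against 31.0, 30.2, 31.1 and 32.5 CPM in DMSO 1 to 4. Both genes had about the same value in all 4 libraries of a group. The log2 fold change was −1.14 ± 0.14 for ANKRD37 (adjusted p = 0.00385) and −0.91 ± 0.10 for KDM3A (adjusted p = 0.00234). VEGFA, the main angiogenic growth factor (chr6:43770184-43786487), had 32, 22.9, 27.9 and 28.2 CPM in degrader 1 to 4, against 54.2, 46.1, 37.4 and 47.2 CPM in DMSO 1 to 4. Degrader 2 and DMSO 3 were the low libraries of their groups, and the log2 fold change was −0.73 ± 0.15 (adjusted p = 0.0287). VEGFA was also called in 2 of 8 leave-outs, those of degrader 2 and DMSO 3, with an adjusted p of up to 0.123 in the others, while PFKFB4, MIR210HG, STC2, ANKRD37, KDM3A and HK2 were called in all 8. Reads of ANKRD37 cannot be told from those of UFSP2, which overlaps it on the other strand, since the counting is not stated to use strand.

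Promoters are shown for 4 members that fell and for ALDOC, which rose. Each window runs from 250 bases before to 50 bases after a RefSeq start on GRCh38.p14, written in the gene's direction. The capitals mark the hypoxia response core, ACGTG or GCGTG in either direction, so that a core on the other strand reads CACGT or CACGC. The palindrome CACGTG, an E-box, holds a core on both strands and counts as 2.
MIR210HG, chr11:568408-568707, minus strand: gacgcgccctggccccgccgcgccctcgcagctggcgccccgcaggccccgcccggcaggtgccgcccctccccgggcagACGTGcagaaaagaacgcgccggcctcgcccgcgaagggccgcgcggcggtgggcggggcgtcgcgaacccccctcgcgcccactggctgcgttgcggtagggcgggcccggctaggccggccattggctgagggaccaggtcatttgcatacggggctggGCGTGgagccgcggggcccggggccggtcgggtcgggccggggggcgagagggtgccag
PFKFB4, chr3:48556754-48557053, minus strand: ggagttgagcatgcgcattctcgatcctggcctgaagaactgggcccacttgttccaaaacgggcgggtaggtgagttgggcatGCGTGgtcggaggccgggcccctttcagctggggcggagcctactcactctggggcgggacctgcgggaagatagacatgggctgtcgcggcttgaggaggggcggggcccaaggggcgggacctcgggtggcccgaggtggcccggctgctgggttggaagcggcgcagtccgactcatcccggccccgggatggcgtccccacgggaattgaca
KDM3A, chr2:86441121-86441420, plus strand: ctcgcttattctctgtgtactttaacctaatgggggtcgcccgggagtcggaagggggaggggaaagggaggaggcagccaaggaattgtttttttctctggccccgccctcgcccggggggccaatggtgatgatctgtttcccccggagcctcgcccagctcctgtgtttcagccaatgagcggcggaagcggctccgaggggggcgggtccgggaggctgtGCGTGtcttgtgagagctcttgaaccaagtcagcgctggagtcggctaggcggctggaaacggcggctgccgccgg
ANKRD37, chr4:185396591-185396890, plus strand: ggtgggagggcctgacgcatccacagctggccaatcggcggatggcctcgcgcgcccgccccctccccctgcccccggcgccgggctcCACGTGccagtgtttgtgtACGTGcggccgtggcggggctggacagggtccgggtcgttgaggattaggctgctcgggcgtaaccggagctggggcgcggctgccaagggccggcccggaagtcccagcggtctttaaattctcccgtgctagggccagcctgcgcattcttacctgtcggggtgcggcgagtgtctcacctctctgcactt
ALDOC, chr17:28576846-28577145, minus strand: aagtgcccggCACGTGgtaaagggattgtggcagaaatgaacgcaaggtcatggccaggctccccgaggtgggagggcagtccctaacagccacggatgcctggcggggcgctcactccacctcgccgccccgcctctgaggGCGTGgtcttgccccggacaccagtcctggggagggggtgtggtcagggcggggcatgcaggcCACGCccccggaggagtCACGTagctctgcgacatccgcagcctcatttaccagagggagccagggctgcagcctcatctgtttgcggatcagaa

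The MIR210HG window holds 2 cores, at −170 and −9 from the start, PFKFB4 holds 1 at −166 and KDM3A holds 1 at −26. ANKRD37 holds an E-box and a further core at −143, and ALDOC holds an E-box and 3 further cores. RefSeq windows were at hand for 37 of the 40 members. By gene, 32 of these (86.5%) held a core in at least 1 window, against 52.4% of all 27305 genes with a window. By window the shares were 76.4% of 55 for the members and 48.4% of 35116 for all. The member windows were richer in CpG, with a median of 30 CpG against 14 in all windows and 23 in all windows with a core, and both cores contain CG. Within the members, 7 of 7 genes that fell and have a window held a core, and so did 25 of the other 30 (83.3%). A match describes the sequence and is not a measured binding site.

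The chain of glycolytic enzymes below hexokinase took another course. ALDOC, a fructose-bisphosphate aldolase (chr17:28573115-28577264), had 51.6, 23.6, 45.4 and 48.4 CPM in degrader 1 to 4, against 18.9, 24.7, 15.0 and 21.0 CPM in DMSO 1 to 4. Degrader 2 lay within the DMSO range, and the other 3 were at 48.4 ± 3.1 CPM (SD, n = 3), above all DMSO libraries. The log2 fold change was 1.09 ± 0.25 (SE; edgeR, adjusted p = 0.0429) with all libraries and 1.27 ± 0.13 (adjusted p = 7.79e-06) without degrader 2. It was called in 1 of 8 leave-outs, that of degrader 2, and its adjusted p reached 0.151 in the others.

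A further 6 enzymes were called higher without degrader 2 and not with it. TPI1, triose-phosphate isomerase, had 462, 154, 435 and 398 CPM in degrader 1 to 4, against 248, 298, 163 and 265 CPM in DMSO 1 to 4. PGAM1, a phosphoglycerate mutase, had 401, 109, 382 and 332 CPM, against 218, 292, 125 and 254 CPM in DMSO. PGK1, phosphoglycerate kinase, had 729, 190, 679 and 613 CPM, against 412, 537, 316 and 476 CPM in DMSO. In each of these, degrader 2 was the lowest of the 8 libraries, DMSO 3 was the lowest of the DMSO libraries, and the other degrader libraries exceeded DMSO. ENO1, enolase, had 2889, 989, 2736 and 2564 CPM in degrader 1 to 4, against 1920, 2104, 1220 and 1869 CPM in DMSO 1 to 4. PFKP, a phosphofructokinase, had 423, 141, 395 and 356 CPM, against 294, 301, 199 and 276 CPM in DMSO. PFKL, its liver-type relative, had 330, 176, 315 and 305 CPM, against 284, 263, 188 and 270 CPM in DMSO. The same libraries stood out in all 6. Without degrader 2 the log2 fold changes were 0.81 ± 0.15 for TPI1, 0.73 ± 0.20 for PGAM1, 0.62 ± 0.14 for PGK1, 0.61 ± 0.15 for ENO1, 0.54 ± 0.13 for PFKP and 0.32 ± 0.12 for PFKL (edgeR, adjusted p between 0.00102 and 0.0484). With all libraries they were 0.17 to 0.57, with adjusted p of 0.374 or more. The aldolase ALDOA and the isomerase GPI were not called by edgeR with all libraries or in any leave-out. Over the leave-outs their log2 fold changes were −0.02 to 0.22 and 0.07 to 0.24, while limma voom called both. ALDOA had a mean of 251 CPM per kilobase of gene model in DMSO and 256 with the degrader. ALDOC had 7.53 and 15.9 (TMM over all 16 libraries).

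With the degrader, 3.12% of all genes tested were called lower and 1.64% higher. Over the 15 glycolytic members, 3 fell and 1 rose, with a median log2 fold change of 0.15. Over the 14 other targets tested, 5 fell and 0 rose, with a median of −0.14, beside 0.05 over all genes tested; 0 were higher by DESeq2 and by limma voom, and 0 at an unadjusted p under 0.05. Without degrader 2, 18.2% of all genes were called higher and 20.3% lower, with a median of −0.04. Of the 15 glycolytic members, 7 were then higher and 3 lower (median 0.24). Of 15 other targets, 0 were higher and 7 lower (median −0.25). In that comparison 10 of the 15 glycolytic members had all 3 degrader libraries above all DMSO libraries, against 22.6% of all genes. The mitochondrial share of counts moved inversely to the glycolytic enzymes from library to library. The median deviation of the glycolytic members from the DMSO mean, on a log2 scale, was 0.34, −0.82, 0.34 and 0.18 in degrader 1 to 4, and 0.06, 0.14, −0.40 and 0.09 in DMSO 1 to 4. The lowest values stand in the libraries with the highest mitochondrial share of their group, degrader 2 at 64.9% and DMSO 3 at 23.5%. In the other targets, degrader 1 to 4 had −0.24, −0.95, −0.29 and −0.25, and DMSO lay between −0.05 and 0.05. The part of the mitochondrial share in these differences was not tested.

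**Figure D2:**
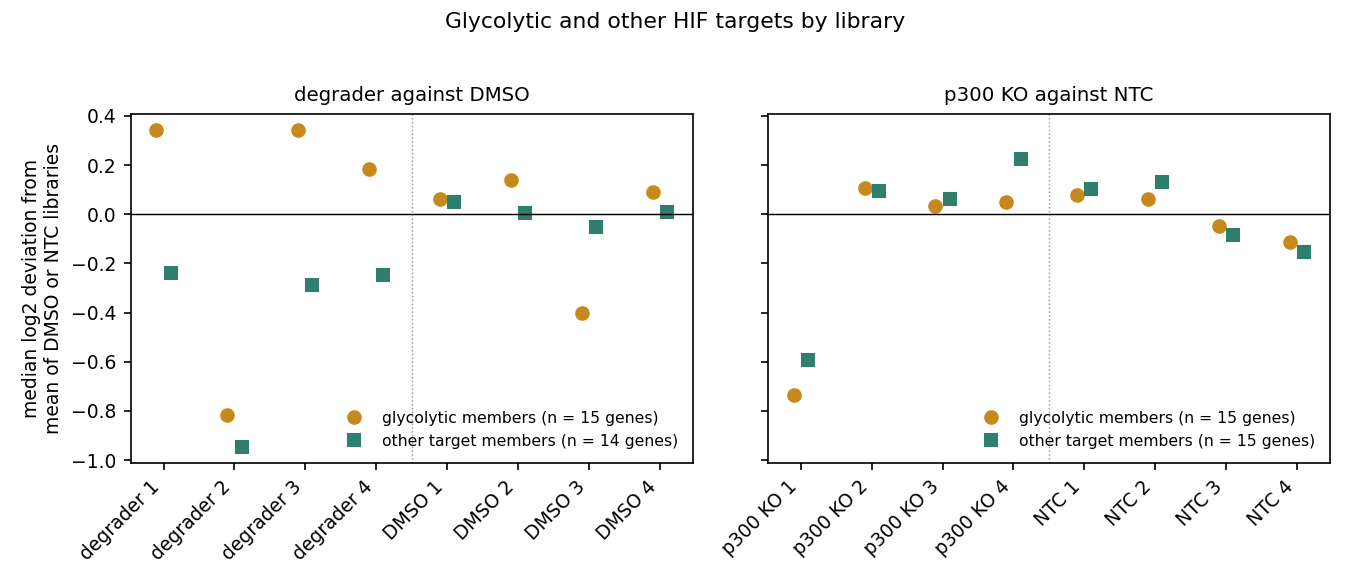
Median log2 deviation from the mean of the controls over the members of a role, 1 point a library, for the degrader experiment and the p300 KO experiment, with degrader left of DMSO and p300 KO left of NTC. Circles are glycolytic members and squares other target members; degrader 2 lies at −0.82 for glycolytic members and −0.95 for other targets, while the other degrader libraries are at 0.18 to 0.34 and −0.29 to −0.24.

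None of the 3 tested subunits of the factor was called with the degrader by edgeR with all libraries, and 2 had an unadjusted p under 0.05. HIF1A, the HIF-1α subunit, had 24.7, 21.7, 20.8 and 19.8 CPM in degrader 1 to 4, against 26.6, 26.0, 27.3 and 25.7 CPM in DMSO 1 to 4. ARNT had 55.0, 49.9, 55.2 and 50.8 CPM, against 62.2, 67.6, 72.3 and 68.6 CPM in DMSO. Both lay below DMSO in all 4 libraries, with log2 fold changes of −0.28 ± 0.10 (edgeR, adjusted p = 0.170) and −0.36 ± 0.10 (adjusted p = 0.0838). They were called lower without degrader 2, at −0.29 (adjusted p = 0.0289) and −0.34 (adjusted p = 0.00533). ARNT was also called lower with all libraries by DESeq2 (adjusted p = 0.00185) and by limma voom (0.00115). HIF1A reads could include those of HIF1A-AS1 and HIF1A-AS3, which overlap it. EPAS1, which encodes HIF-2α, was at 0.520 to 1.69 CPM with the degrader and 0.329 to 1.30 CPM in DMSO, and did not pass the test (log2 fold change 0.63, adjusted p = 0.476, and 0.78 without degrader 2, adjusted p = 0.123), while limma voom called it higher.

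Among the regulators, HIF1AN, the asparaginyl hydroxylase, had 27.6, 28.8, 21.5 and 22.9 CPM in degrader 1 to 4, against 17.8, 20.2, 19.5 and 21.2 CPM in DMSO 1 to 4. All degrader libraries were above DMSO, the 1 member higher without overlap, against 7.60% of all genes. The log2 fold change was 0.35 ± 0.13 (edgeR, adjusted p = 0.158), and 0.28 without degrader 2 (adjusted p = 0.0496). HIF1AN reads could include those of NDUFB8, which overlaps it on the other strand. The prolyl hydroxylases EGLN1, EGLN2 and EGLN3, and CITED2, which competes with HIF for p300 and CBP, overlapped between the groups. CITED2 had 24.9, 14, 25.5 and 24.6 CPM in degrader 1 to 4, against 23.1, 30.3, 14.5 and 26.7 CPM in DMSO 1 to 4.

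Several well known targets did not differ beyond the spread between libraries. BNIP3, a mitophagy receptor, had 40.7, 16.5, 45.1 and 40.5 CPM in degrader 1 to 4, against 54.9, 47.6, 41.3 and 47.6 CPM in DMSO 1 to 4 (log2 fold change −0.41 ± 0.27; edgeR, adjusted p = 0.434). The related BNIP3L had 47.4, 62.1, 46.4 and 46.1 CPM, against 54.8, 50.3, 61.2 and 55.9 CPM in DMSO. Here degrader 2 was the highest library, and without it BNIP3L was lower at −0.26 ± 0.08 (adjusted p = 0.0259). KDM4B, another histone demethylase, had 33.1, 66.0, 31.5 and 35.4 CPM in degrader 1 to 4, against 37.6, 40.9, 39.9 and 39.4 CPM in DMSO 1 to 4. Degrader 2 lay above all other libraries, and the log2 fold change was 0.06 with it and −0.25 ± 0.08 without it (adjusted p = 0.0272). NDRG1, P4HA1, P4HA2, INSIG2 and ERO1A had log2 fold changes of −0.14 to −0.02 and overlapping groups. The glucose transporter SLC2A1, lactate dehydrogenase LDHA and the pyruvate dehydrogenase kinase PDK1 had 0.01 ± 0.26, −0.02 ± 0.29 and 0.15 ± 0.16 (adjusted p of 0.650 or more). CA9, a carbonic anhydrase at the cell surface, was at 0.671 to 1.21 CPM with the degrader and 0.777 to 1.24 CPM in DMSO, and CA12 had 0 counts in all 16 libraries.

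In the second experiment, EP300, the gene of p300, was lower in p300 KO. It had 50.2, 38.1, 34.0 and 37.4 CPM in p300 KO 1 to 4, against 100, 92.5, 91.0 and 94.6 CPM in NTC 1 to 4, and p300 KO 1 was the highest of its group. The log2 fold change was −1.25 ± 0.11 (SE; edgeR, adjusted p = 0.000220), so that transcript remained in the libraries labelled as knockout. CREBBP, the gene of the paralogue CBP, rose by 0.32 ± 0.06 (adjusted p = 0.0085). With the degrader, which acts on the protein, EP300 had 49.9, 141, 48.1 and 49.9 CPM in degrader 1 to 4, against 35.8, 45.3, 43.9 and 41.4 CPM in DMSO 1 to 4, and did not pass the test (adjusted p = 0.249).

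In p300 KO, the share of HIF genes called was near that of all genes. MIR210HG and PFKFB4, which fell most with the degrader, were not called by edgeR with all libraries, and were called higher without p300 KO 1. Of 38 members tested, 4 rose and 2 fell, against 6.23% higher and 10.7% lower among all genes, or 17.0% in either direction. Those that rose were ARNT, EGLN2, HIF1AN and KDM4B, and those that fell were EPAS1 and STC2. HIF3A and CA12 were not tested. No glycolytic member was called by edgeR or DESeq2, 1 of the 15 had an unadjusted p under 0.05, and limma voom with quality weights called 4 higher and 1 lower. The median log2 fold change was −0.11 over glycolytic members and 0.05 over other targets, beside 0.02 over all genes; with total count scaling the median of other targets was −0.05. Without p300 KO 1, 14 members were higher and 9 lower of 38, against 19.1% and 21.8% of all genes. With total count scaling, 0 of the 38 were called by edgeR and 4 had an unadjusted p under 0.05.

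**Figure D3:**
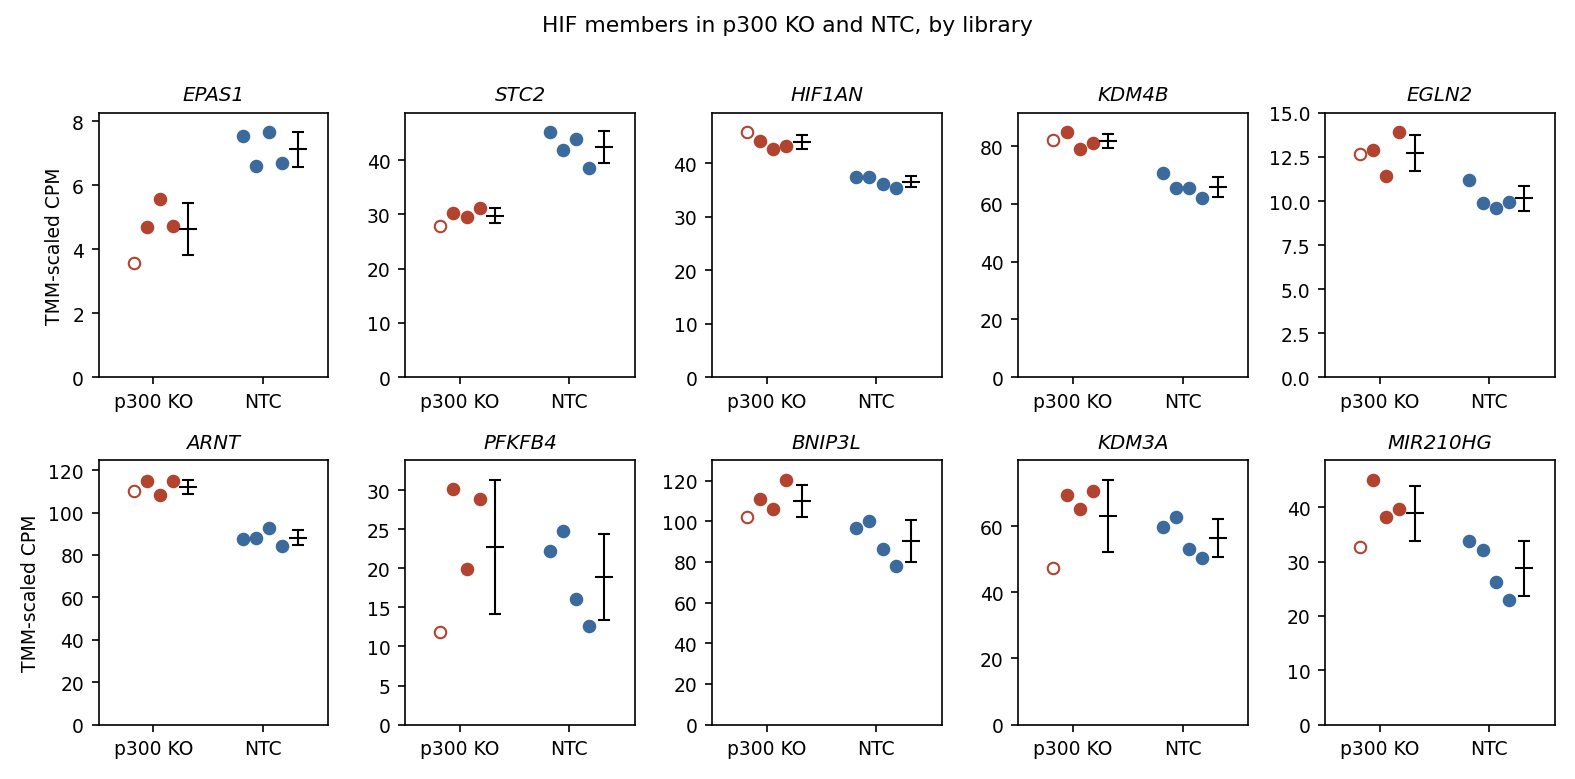
Levels in CPM (TMM-scaled) of members in the p300 KO experiment, 1 panel a gene, with the 4 p300 KO libraries left of the 4 NTC libraries. Points are libraries, the open point is p300 KO 1, and bars are mean ± SD; STC2 lies at 27.9 to 31.2 CPM in p300 KO and 38.5 to 45.1 CPM in NTC.

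The subunits changed in opposite directions in p300 KO. ARNT had 110, 115, 108 and 115 CPM in p300 KO 1 to 4, against 87.7, 88.1, 92.6 and 84.1 CPM in NTC 1 to 4 (log2 fold change 0.35 ± 0.06; edgeR, adjusted p = 0.00589). EPAS1 had 3.59, 4.69, 5.56 and 4.72 CPM, against 7.54, 6.60, 7.65 and 6.70 CPM in NTC (−0.60 ± 0.14, adjusted p = 0.0170). The groups did not overlap for either gene. Of the 38 members tested, 5 lay higher and 5 lower in p300 KO without overlap, against 12.5% and 16.1% of all genes. HIF1A was at 33.0 to 43.7 CPM in p300 KO and 34.2 to 39.2 CPM in NTC and did not pass the test. The call of EPAS1 was lost without NTC 1 or NTC 3 (adjusted p up to 0.0601).

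Of the regulators, EGLN2, a prolyl hydroxylase, had 12.7, 12.9, 11.4 and 13.9 CPM in p300 KO 1 to 4, against 11.2, 9.86, 9.63 and 9.95 CPM in NTC 1 to 4. HIF1AN had 45.7, 44.2, 42.6 and 43.2 CPM, against 37.4, 37.4, 36.1 and 35.4 CPM in NTC. Both were higher in every p300 KO library, at log2 fold changes of 0.33 ± 0.09 (edgeR, adjusted p = 0.0364) and 0.26 ± 0.06 (adjusted p = 0.0169). EGLN2 reads could include those of RAB4B-EGLN2, and HIF1AN reads those of NDUFB8, which overlap them. EGLN2 was called in 3 of 8 leave-outs, those of NTC 1, p300 KO 1 and p300 KO 3 (adjusted p up to 0.107 in the others), and HIF1AN in 6 of 8, lost without NTC 3 or NTC 4 (up to 0.0649). CITED2 had 44.5, 99.7, 105 and 109 CPM in p300 KO 1 to 4, against 164, 153, 140 and 148 CPM in NTC 1 to 4. Every p300 KO library was below NTC, but p300 KO 1 was far below the rest, and the log2 fold change of −0.75 ± 0.23 missed the threshold (adjusted p = 0.0548). Without p300 KO 1 it was −0.53 ± 0.05 (adjusted p = 4.32e-11).

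STC2 was the member that fell in both experiments. It had 27.9, 30.3, 29.5 and 31.2 CPM in p300 KO 1 to 4, against 45.1, 42.0, 44 and 38.5 CPM in NTC 1 to 4. The log2 fold change was −0.51 ± 0.07 (edgeR, adjusted p = 0.00213), and the call was kept in all 8 leave-outs. KDM4B had 82.0, 84.8, 79.0 and 81.1 CPM, against 70.6, 65.4, 65.5 and 61.9 CPM in NTC (0.31 ± 0.06, adjusted p = 0.0119), also in all 8.

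MIR210HG had 32.7, 45, 38.1 and 39.6 CPM in p300 KO 1 to 4, against 33.7, 32.1, 26.3 and 22.9 CPM in NTC 1 to 4. The lowest p300 KO library, p300 KO 1, fell within the NTC range, and the log2 fold change was 0.44 ± 0.14 (edgeR, adjusted p = 0.0567). Without p300 KO 1 it was 0.51 ± 0.08 (adjusted p = 1.28e-06). PFKFB4 had 11.8, 30.2, 19.9 and 28.9 CPM, against 22.2, 24.7, 16 and 12.7 CPM in NTC, with wide spread in both groups (0.28 ± 0.29, adjusted p = 0.519, and 0.48 ± 0.12 without p300 KO 1, adjusted p = 0.000995). KDM3A had 47.2, 69.4, 65.2 and 70.5 CPM in p300 KO 1 to 4, against 59.6, 62.9, 53.0 and 50.5 CPM in NTC 1 to 4. It was called higher without p300 KO 1, at 0.27 ± 0.06 (adjusted p = 0.000268), and not with it.

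Other targets were called higher without p300 KO 1 and not with it. BNIP3 had 50.5, 105, 92.7 and 100 CPM in p300 KO 1 to 4, against 69.6, 77.7, 62.8 and 56.7 CPM in NTC 1 to 4. BNIP3L had 102, 111, 106 and 120 CPM, against 96.8, 100, 86.2 and 78.1 CPM in NTC. P4HA1, a subunit of collagen prolyl hydroxylase, had 55.5, 169, 151 and 189 CPM, against 147, 163, 125 and 112 CPM in NTC. In BNIP3 and P4HA1, p300 KO 1 was the lowest of the 8 libraries. INSIG2, which holds back sterol synthesis, had 14.2, 26.2, 23.7 and 25.0 CPM, against 22.0, 23.5, 19.8 and 20.3 CPM in NTC. Without p300 KO 1 the log2 fold changes were 0.57 ± 0.06 for BNIP3, 0.32 ± 0.06 for BNIP3L, 0.31 ± 0.07 for P4HA1 and 0.22 ± 0.07 for INSIG2 (edgeR, adjusted p of 0.0109 or less). BNIP3 has 44 named pseudogene copies in the tables, with 1038 counts over all libraries, so its reads may be split.

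On the lower side without p300 KO 1, ADM, the vasodilator peptide adrenomedullin, had 0.581, 1.88, 1.48 and 1.73 CPM in p300 KO 1 to 4, against 3.20, 4.05, 2.58 and 1.89 CPM in NTC 1 to 4. ANKRD37 had 4.65, 6.53, 5.95 and 8.4 CPM, against 10.3, 8.32, 8.46 and 7.07 CPM in NTC. HK2 had 37.5, 48.3, 41.5 and 47.5 CPM, against 59.0, 54.1, 54.8 and 46.2 CPM in NTC. ADM was below NTC in every library, while ANKRD37 and HK2 overlapped with it. The log2 fold changes without p300 KO 1 were −0.78 ± 0.21, −0.30 ± 0.12 and −0.23 ± 0.07 (edgeR, adjusted p of 0.0402 or less). EGLN3 was lower at −0.36 ± 0.15 (adjusted p = 0.0475). PDK1 had 151, 136, 116 and 134 CPM in p300 KO 1 to 4, against 148, 150, 140 and 131 CPM in NTC 1 to 4, and was lower at −0.15 ± 0.05 (adjusted p = 0.0275), with overlapping groups.

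Without p300 KO 1, the log2 fold changes of the glycolytic members other than PFKFB4 lay between −0.23 and 0.30. ENO1 had 1400, 2771, 2731 and 2679 CPM in p300 KO 1 to 4, against 3158, 3042, 2871 and 2856 CPM in NTC 1 to 4. PGK1 had 300, 754, 690 and 734 CPM, against 810, 796, 680 and 665 CPM in NTC. ENO1 was below NTC in every library (−0.13 ± 0.05 without p300 KO 1; edgeR, adjusted p = 0.0343), and PGK1 overlapped except for p300 KO 1. GPI, an isomerase, had 403, 652, 596 and 609 CPM in p300 KO 1 to 4, against 561, 553, 509 and 479 CPM in NTC 1 to 4. PFKL had 248, 397, 364 and 352 CPM, against 311, 304, 281 and 310 CPM in NTC. SLC2A1 had 11.6, 20.2, 16.7 and 21.9 CPM, against 16.8, 16.6, 14.7 and 15.8 CPM in NTC. These 3 were called higher without p300 KO 1, at 0.23 for GPI, 0.30 for PFKL and 0.30 for SLC2A1 (adjusted p of 0.00320 or less). The median deviation of glycolytic members from the NTC mean was −0.74 in p300 KO 1 and 0.03 to 0.11 in the other p300 KO libraries, and −0.11 to 0.08 in NTC. For other targets it was −0.59 in p300 KO 1, 0.06 to 0.22 in the other p300 KO libraries and −0.16 to 0.13 in NTC. The mitochondrial share was 47.7% in p300 KO 1, and its part in these values was not tested.

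The difference between the effects was tested directly, as p300 KO minus NTC less degrader minus DMSO, with all 16 libraries; the experiments share no library. Of 38 members, 5 were higher in this difference and 1 was lower, against 2.82% and 3.76% of all genes, or 6.58% in either direction. MIR210HG differed by 2.46 ± 0.23 on the log2 scale (SE; edgeR, adjusted p = 1.7e-05), PFKFB4 by 2.36 ± 0.40 (adjusted p = 0.00228) and KDM3A by 1.04 ± 0.19 (adjusted p = 0.00431). These 3 fell with the degrader and did not pass the test in p300 KO. STC2 differed by 0.63 ± 0.14 (adjusted p = 0.0125), lower in both experiments but by less in p300 KO. ARNT differed by 0.67 ± 0.12 (adjusted p = 0.00342); it rose in p300 KO, and its value of −0.36 with the degrader did not pass the test. ALDOC differed by −1.20 ± 0.34 (adjusted p = 0.0494), a call kept in 3 of 17 leave-outs, with an adjusted p of up to 0.111 in the others. The other 5 kept theirs in all 17. With total count scaling, 2 were higher, MIR210HG and PFKFB4, and 0 lower.

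Without degrader 2 and p300 KO 1, 14 members were higher and 8 lower in the difference, against 15.3% and 16.7% of all genes. Of the 15 other targets tested, 9 were higher and 0 lower. With all libraries 3 were higher and 0 lower by edgeR, and 0 were lower by DESeq2 and by limma voom. Of the 15 glycolytic members, 3 were higher and 6 lower. The 3 were HK2, PFKFB3 and PFKFB4, and the 6 were PFKP, ALDOC, TPI1, PGK1, PGAM1 and ENO1. In the separate fits without degrader 2 or p300 KO 1, 38.5% of all genes were called with the degrader and 40.9% in p300 KO. Pairs of calls were counted for members only, so no share over all genes stands beside them. By these calls, 6 members were lower with the degrader and higher in p300 KO, namely ARNT, BNIP3L, KDM3A, KDM4B, MIR210HG and PFKFB4. The difference was called for all 6. Opposite calls in the same libraries make this nearly certain, so it adds no support. Another 3, ANKRD37, HK2 and STC2, were lower in both, and each was lower by less in p300 KO, with differences of 0.78, 0.52 and 0.62 (adjusted p of 0.00398 or less). As for STC2, the controls of HK2 differed, at 14.3 CPM per kilobase in DMSO and 8.16 in NTC, while ANKRD37 was at 3.54 and 3.06. HIF1AN and PFKL were higher in both, and their differences were not called. ERO1A, an oxidase of the endoplasmic reticulum, was called in the difference alone, at 0.34 ± 0.12 (adjusted p = 0.0323). It had 49.1, 77.8, 54.7 and 48.5 CPM in degrader 1 to 4, against 51.6, 59.4, 70.1 and 58.3 CPM in DMSO 1 to 4.

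**Figure D4:**
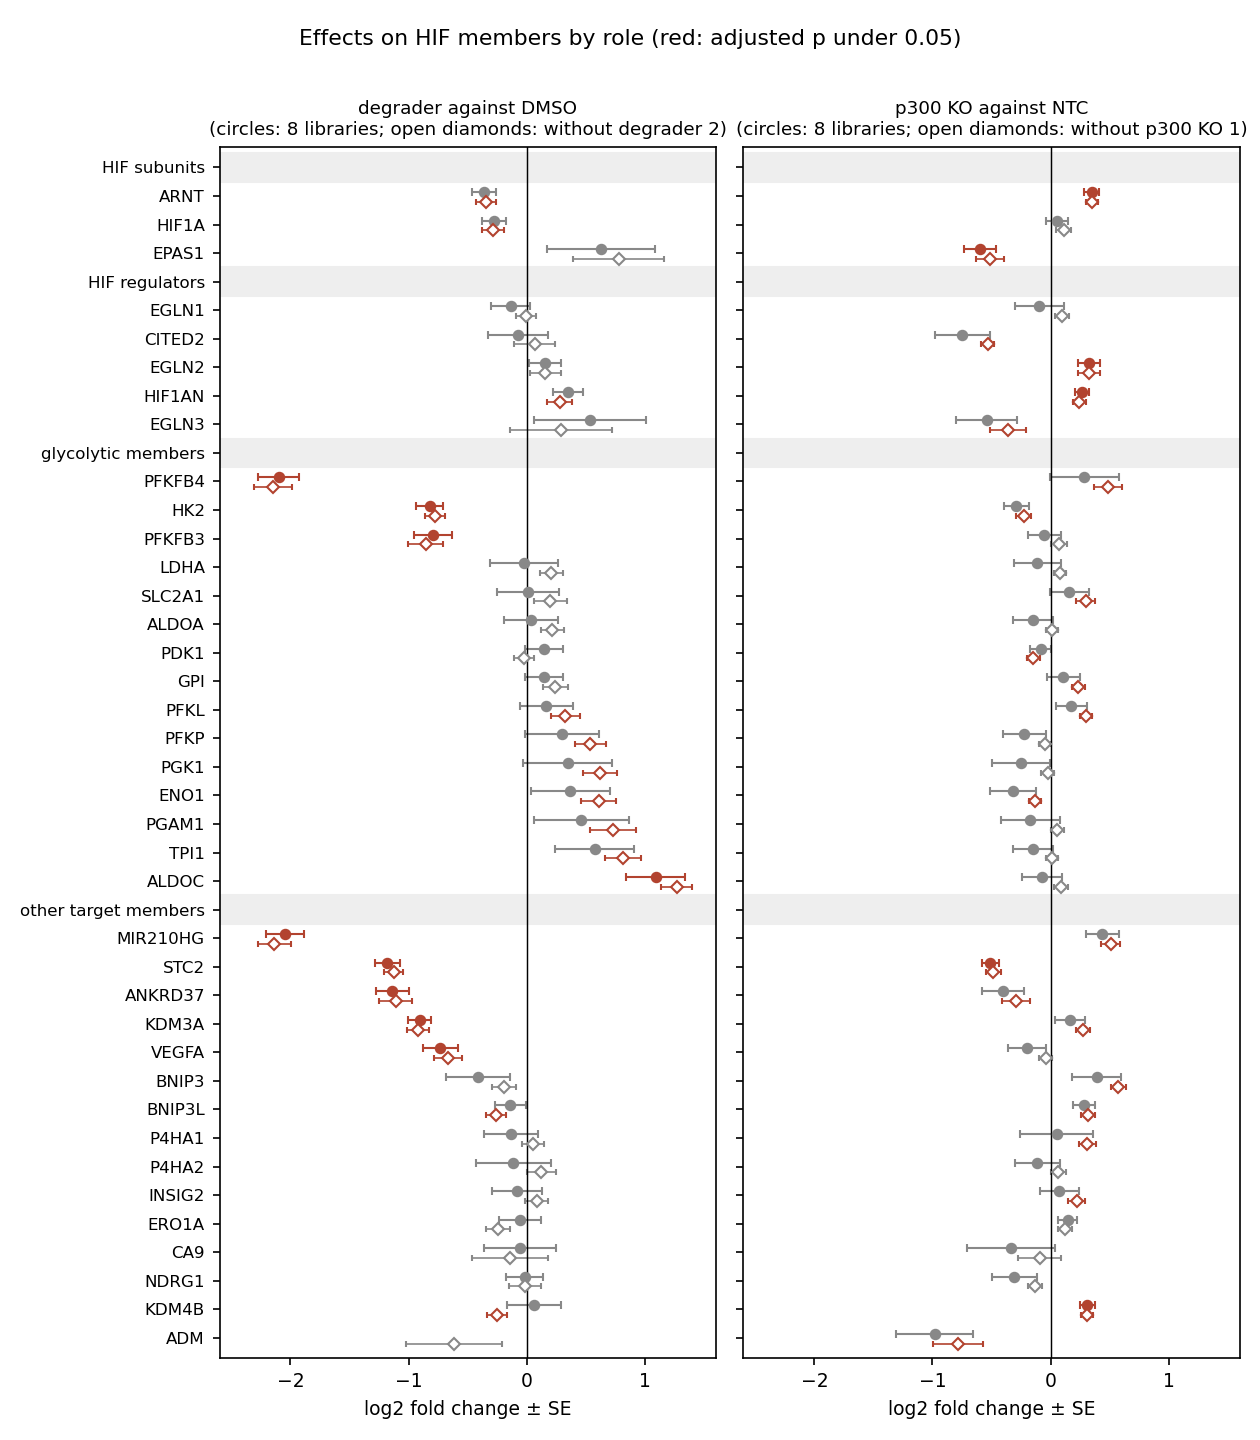
Log2 fold change of each tested member with the degrader against DMSO and in p300 KO against NTC, ordered by role, with bars of ± 1 SE; circles are fits of 8 libraries, open diamonds fits without degrader 2 or p300 KO 1, and red marks an adjusted p under 0.05. MIR210HG and PFKFB4 stand out with the degrader, at −2.05 and −2.10, and lie at 0.44 and 0.28 in p300 KO.

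The members span a wide range of levels. Levels per kilobase of gene model were taken on a TMM scale of all 16 libraries. ENO1 was the highest, at a mean of 498 CPM per kb in DMSO and 697 in NTC, followed by ALDOA and LDHA. The 8 members that fell with the degrader lay between 2.27 and 14.3 CPM per kb in DMSO, with a median of 3.72, while the 7 glycolytic members higher without degrader 2 lay between 7.53 and 498, with a median of 89.1. All 37 tested members had a median of 8.76. HIF1A was at 5.67 CPM per kb in DMSO. HIF3A had 26 counts over all 16 libraries and CA12 had none. A count of 0 allows up to 3 counts, or 0.130 to 0.238 CPM of total counts before TMM, depending on the library. With TMM this floor is higher in degrader 2, where EPAS1 had 3 counts and 0.520 CPM. TPI1, PGAM1, ENO1 and LDHA also have 4 to 13 named copies in the tables, and reads shared with them could be split.

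Related genes were taken from lists chosen with earlier results of these data known. JMJD6 is among both the coactivators and the published targets, and PKM among both the coactivators and the glucose genes. Each counts in both of its lists. With the degrader, 0 of 12 genes of the VHL ubiquitin ligase and HIF stability were called (edgeR; 0 also by DESeq2, 0 at an unadjusted p under 0.05, and 3 higher and 3 lower by limma voom). Without degrader 2, 3 were higher and 1 lower, against 18.2% and 20.3% of all genes. The 1 was VHL, which had 70.6, 141, 65.2 and 67.4 CPM in degrader 1 to 4, against 94.5, 92.2, 106 and 92.1 CPM in DMSO 1 to 4. Degrader 2 was the highest of the 8 libraries and the other degrader libraries were the lowest, at −0.51 ± 0.08 without it (adjusted p = 0.000401). Of 9 coactivators and partners, 0 were called, 3 had an unadjusted p under 0.05, DESeq2 called 1 higher, limma voom called 4 higher and 1 lower, and 2 were higher and 1 lower without degrader 2. Of 33 other published HIF targets tested, 3 fell and 3 rose, against 3.12% and 1.64% of all genes. Without degrader 2, 12 of 34 were lower and 7 higher, against 20.3% and 18.2% of all genes. BHLHE40, a repressor of the clock and of differentiation, had 5.71, 9.19, 6.31 and 5.33 CPM in degrader 1 to 4, against 41.5, 46.5, 44.2 and 42.0 CPM in DMSO 1 to 4 (−2.75 ± 0.17, adjusted p = 0.000263). DDIT4, an inhibitor of mTORC1, had 97, 50.3, 93.0 and 83.8 CPM, against 437, 451, 309 and 405 CPM in DMSO (−2.30 ± 0.23, adjusted p = 0.00179). FOSL2, an AP-1 subunit, had 6.10, 6.59, 4.92 and 5.09 CPM, against 28.4, 32.3, 26.7 and 28.7 CPM in DMSO (−2.37 ± 0.13, adjusted p = 0.000223). These values are of the size of those of MIR210HG and PFKFB4, and the groups lay far apart. The genes that rose were DUSP1, a phosphatase of MAP kinases (1.46 ± 0.31), SLC16A3, a lactate exporter (0.83 ± 0.15), and GBE1, the glycogen branching enzyme (0.56 ± 0.12). Of 22 other glucose genes, BPGM rose by 0.69 ± 0.13 and 0 fell (0 also by DESeq2), while limma voom called 9 higher and 1 lower. Leaving out degrader 2, 7 were higher and 0 lower, against 18.2% and 20.3% of all genes.

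In p300 KO, 4 of 34 other published targets rose and 4 fell, against 6.23% and 10.7% of all genes. Leaving out p300 KO 1, 11 of 35 were higher and 9 lower, against 19.1% and 21.8%. DDIT4 had 449, 855, 789 and 750 CPM in p300 KO 1 to 4, against 467, 482, 443 and 427 CPM in NTC 1 to 4, higher by 0.64 ± 0.17 (edgeR, adjusted p = 0.0323), with p300 KO 1 within the NTC range. TMEM45A, a transmembrane protein, fell by 0.84 ± 0.17 on the log2 scale, and BHLHE41, the relative of BHLHE40, fell by 0.66 ± 0.13. Of the 12 genes of VHL and HIF stability, 2 fell, namely RBX1, the RING subunit of the VHL ligase, by 0.60 ± 0.11, and SIAH2, a ligase for prolyl hydroxylases, by 0.71 ± 0.16. RBX1 lies near the knocked-out gene, at chr22:40951347-40973309, with EP300 at chr22:41091786-41180079. Whether this position has a part in its fall was not tested. When p300 KO 1 was left out, 3 were higher, VHL among them at 0.19 ± 0.05, and 2 were lower. In the difference, DDIT4, BHLHE40, FOSL2 and RAB20 were higher, at 2.92 ± 0.33, 2.54 ± 0.25, 2.46 ± 0.15 and 2.66 ± 0.70 (adjusted p of 0.0309 or less), so that 4 of 35 published targets were higher and 2, SLC16A3 and TMEM45A, were lower, against 2.82% and 3.76% of all genes. Without degrader 2 and p300 KO 1, 10 were higher and 7 lower, against 15.3% and 16.7% of all genes.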

How the data were processed

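Each library had 1 deposited table of raw counts, whole numbers of reads for each of 57500 genes, as made by the authors. The submitters' processing notes name GRCh38, Trimmomatic 0.36, STAR 2.5.2b and, as part of Subread 1.5.2, featureCounts; they also name DESeq2 1.16.1. Per the labels' protocols, libraries came from total RNA with the NEBNext Ultra II RNA kit. Whether strand was used, how reads with several hits were treated and which annotation release was used was not given in the sources used here. Symbols were found for 40907 genes, and no library was a copy of another.

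Counts were tested with the quasi-likelihood test of edgeR 4.0.16 in R 4.3.3 after filterByExpr and TMM, with Benjamini-Hochberg adjustment over all genes tested and a call at an adjusted p under 0.05. Each comparison used its own 8 libraries, and the difference used all 16. The SE of a log2 fold change is its size divided by the square root of F. The fits were tested on simulated data. Medians by library used log2(CPM + 0.5). Alternatives were other scalings, no filter, DESeq2 1.42.0, voom of limma 3.58.1 with quality weights, removal of mitochondrial genes, a fit of all libraries, a replicate block and leaving out each library. Floors of 3 counts cover counting error only. The members and lists were chosen with earlier results of these data known. By rule, values per library are given for up to 30 members called in either comparison or in the difference, with or without degrader 2 and p300 KO 1, those with the smallest p first. EP300 and CREBBP are always named, and up to 4 called genes per other list and comparison.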

Additional observations from a re-analysis of the deposited data

Results flagged for a closer look

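Of 56 groups of 4 libraries looked at for a lone value by Dixon's test at the 95% level, 4 held one; chance marks about 1 group in 20. KDM4B was at 66.0 CPM in degrader 2, against 31.5 to 35.4 CPM in the other degrader libraries. PFKFB4 was at 14.2 CPM in DMSO 1, against 11.9 to 12.0 CPM in the other DMSO libraries. In p300 KO 1, ALDOC was at 37.2 CPM and VEGFA at 34.1 CPM, against 64.9 to 69.8 CPM and 57.7 to 62.4 CPM in the other p300 KO libraries. Of the 4, 3 stand in the libraries with a high mitochondrial share.

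For 6 members the effect of p300 KO differed from that of the degrader in a test of the difference itself (edgeR's quasi-likelihood test, all 16 libraries, adjusted over all genes). The difference on the log2 scale was 2.46 for MIR210HG, 2.36 for PFKFB4, 1.04 for KDM3A, 0.67 for ARNT, 0.63 for STC2 and −1.20 for ALDOC.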

How the results depend on the processing

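PFKFB4 and MIR210HG were called lower with the degrader under all 8 other settings and all 8 leave-outs. Members called numbered 9 with the degrader, 6 in p300 KO and 6 in the difference. With total count scaling they numbered 2, 0 (4 at an unadjusted p under 0.05) and 2, and that scaling put the median of all genes at −0.09 with the degrader and −0.14 in p300 KO, against 0.05 and 0.02 with TMM. With limma voom and quality weights they numbered 22 (10 higher, 12 lower), 19 (14 higher, 5 lower) and 22 (14 higher, 8 lower). DESeq2 called 10 in p300 KO (6 higher, 4 lower), the fit of all libraries 2, and with no filter 4 (0 higher, 4 lower), with 3 in the difference. Leaving out 1 library gave 6 to 20 with the degrader, 3 to 23 in p300 KO and 5 to 13 in the difference, the highest without degrader 2, p300 KO 1 and degrader 2 in that order; without both these libraries the difference had 22. Same-numbered libraries correlated at −0.44 to 0.13. Degrader 2 and p300 KO 1 stand so far from their groups that this cannot exclude pairing by replicate number. With a replicate block, 2 were called with the degrader, 1 in p300 KO and 5 in the difference. KDM4B with the degrader, at 0.06, was −0.25 with voom and ran from −0.25 (without degrader 2) to 0.18 over the leave-outs. The medians ranged over leave-outs from 0.07 to 0.24 (glycolytic) and −0.25 to −0.14 (other targets) with the degrader, and from −0.19 to 0.06 and −0.12 to 0.12 in p300 KO. With the longer cores ACGTGC and GCGTGC, 51.4% of members and 22.0% of all genes held one. The cause of these shifts was not tested.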

Other observations

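Among the coactivators and partners of HIF, RUVBL1, an ATPase of chromatin remodelling complexes, was lower in p300 KO. It had 47.8, 56.5, 59.2 and 57.3 CPM in p300 KO 1 to 4, against 77.2, 76.6, 75.1 and 77.9 CPM in NTC 1 to 4 (log2 fold change −0.47 ± 0.08, SE; edgeR, adjusted p = 0.00385). Its difference between the experiments was −1.01 ± 0.26 (adjusted p = 0.0263). JMJD6, an oxygen-dependent hydroxylase, fell by 0.28 ± 0.06 in p300 KO, and ARNT2, the relative of ARNT, rose by 0.58 ± 0.17 (adjusted p = 0.0439), at 2.62 to 2.89 CPM in p300 KO and 1.53 to 2.16 CPM in NTC. EP300 and CREBBP complete the 5 of 9 called in this list, against 17.0% of all genes. A fit without p300 KO 1 called 6, these 5 and NCOA1, against 40.9% of all genes. Both counts include EP300, the target of the knockout, whose call follows from the design. They also include JMJD6, which is counted among the other published targets too.

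Other glucose genes in p300 KO included a pair of enolases that moved apart. ENO2 had 50.6, 65.6, 56.1 and 60.0 CPM in p300 KO 1 to 4, against 42.0, 43.3, 37.3 and 36.5 CPM in NTC 1 to 4 (0.55 ± 0.10; edgeR, adjusted p = 0.00561). ENO3 had 48.7, 40.5, 37.6 and 39.8 CPM, against 54.6, 59.2, 68.1 and 66.3 CPM in NTC (−0.58 ± 0.10, adjusted p = 0.00589). Neither overlapped between the groups, p300 KO 1 included. Of the 22 tested, 2 lay higher and 3 lower without overlap, against 12.5% and 16.1% of all genes. SLC16A1, a monocarboxylate transporter, had 51.9, 50.2, 50.8 and 54.1 CPM, against 69.6, 71.2, 68.0 and 68.5 CPM in NTC (−0.42 ± 0.06, adjusted p = 0.00185). These were the 3 called of 22 tested, 1 higher and 2 lower, against 17.0% of all genes called. The fit without p300 KO 1 called 7 higher and 4 lower, against 19.1% and 21.8% of all genes.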
